A study of Mus musculus with 8 samples.

Results

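The normal epidermis of newborn C57BL/6J mice was profiled by RNA sequencing in 4 wild-type samples, which are 4 of the 8 samples of a series on the zinc finger gene Zfp750. The 4 were chosen by their wild-type label alone, and no difference between genotypes is reported here. For 1 contrast among the wild types, the same contrast within the 4 ZFP750-/- samples is set beside it. An alternative fit of that contrast took all 8 libraries together, with genotype as a term. Whole newborn skin had been left in cold trypsin-EDTA overnight, the epidermis was peeled off and snap-frozen, and no treatment is labelled. Ribosomal RNA was depleted from total RNA before stranded paired-end sequencing, so RNAs without a poly(A) tail are in the libraries. The labels do not say that each sample came from its own pup, so the spread between samples may be partly technical. Levels are FPKM, fragments per kilobase of transcript and scaled to the mapped fragments, as the authors deposited them, and each ± is the SD of the 4 libraries (n = 4). The 4 libraries are called wild types 1 to 4. A number in their titles, here called the title code, was 44 for wild types 1 and 2, 14 for wild type 3 and 11 for wild type 4, and the labels do not say what it means.

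The epidermis is a layered epithelium of keratinocytes. Cells divide in the basal layer, where integrins and hemidesmosomes hold them to the basement membrane, and on leaving it they stop dividing, change their keratins and strengthen their desmosomes. In the granular layer they make the lipids and the cross-linked protein shell, the cornified envelope, that turn them into the dead squames of the barrier, and proteases and their inhibitors then set how fast squames are shed.

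The table lists 15995 gene symbols, and 15991 of them are described. Krt1, Krt10 and Flg2, which encode the main suprabasal keratin pair and a filaggrin-like protein, are listed at 0 in all 4 wild types, and Rn45s, the ribosomal RNA precursor, at 8239, 10439.5, 0 and 0 FPKM. A 0 for a gene that differentiating keratinocytes use can be a failed estimate, so nothing is read from these 4 genes, and every share below is a share of summed FPKM without them. Summed FPKM was 552791, 550705, 483416 and 537635 in wild types 1 to 4. The number of genes at or above 1 FPKM was 10744, 10888, 11599 and 11458. Across genes, which are not independent replicates, the libraries correlated at 0.975 to 0.988 (Pearson's r of log2(FPKM + 1)). FPKM keeps no read count, so no counting interval is given. Xist, the RNA transcribed from the inactive X chromosome of female cells, stood at 0.0223, 0.00870, 118 and 0.00825 FPKM, so wild type 3 alone was above 1 FPKM.

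All 18 keratinocyte markers were at or above 1 FPKM in each library, and their median level was 820.2 FPKM, beside 4.72 FPKM over all genes described. Zfp750 (chr11:121510978-121519333, minus strand, GRCm38, the same build as mm10), a transcription regulator of keratinocyte differentiation and the gene the series is named for, stood at 119, 111, 81.6 and 93.7 FPKM. Its level was highest in wild type 1 and lowest in wild type 3, and the mean was 101 ± 16.9 FPKM.

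A small set of genes took much of the summed FPKM, which is divided by length and so is not a share of RNA. Of the 15991 genes, 10435 (65.3%) were at or above 1 FPKM in all 4 libraries, and 266 were listed at 0 in all 4. The counts of list members at or above 1 FPKM are to be read beside that 65.3%. The 68 genes with a mean of at least 1000 FPKM, 0.425% of all, held 38.5% of the summed FPKM. The 10 most abundant genes of each library held 21.9%, 23.8%, 15.4% and 21.1% of it, a mean of 20.6% ± 3.60, and wild type 3 stood below the other 3. The 100 most abundant held 44.03% ± 3.01. The most abundant 131, 128, 201 and 161 genes made up the upper 50% of summed FPKM. Among the 14943 protein-coding genes alone the distribution was flatter, with 11.1% ± 1.34 in the 10 most abundant and 225, 234, 312 and 321 genes in the upper 50%.

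**Figure D1:**
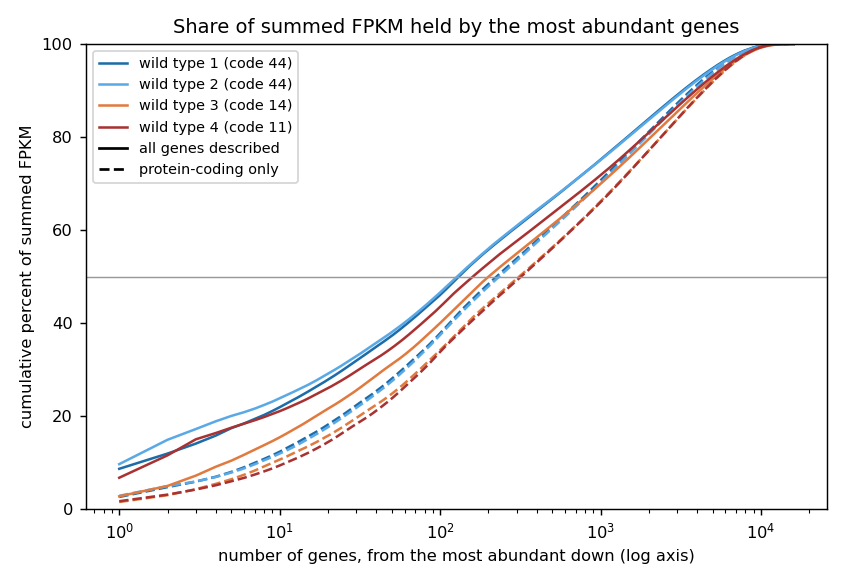
Cumulative percent of summed FPKM against the number of genes, counted from the most abundant down on a log axis, with 1 line per wild-type library for all genes described (solid) and for protein-coding genes only (dashed). The solid lines reach 50% at 128 to 201 genes and the dashed lines at 225 to 321.

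The difference between the solid and dashed lines of that plot lies in a few short RNAs. Rpph1, the RNA of ribonuclease P, which trims transfer RNA precursors, was listed at 47898, 53244, 9284 and 36278 FPKM. Rmrp, the RNA of the related ribonuclease MRP, stood at 18105, 28848, 13304 and 25880.1 FPKM. The small nucleolar RNA Snord47, which guides methylation of ribosomal RNA, stood at 8857, 1800.3, 10684 and 18509 FPKM. These were the 3 highest mean levels among the genes described and none was stable: Rpph1 was lowest in wild type 3, and Snord47 in wild type 2. Snord99, another guide RNA, was listed at 10781 FPKM in wild type 3 and at 0 in the other 3 libraries. A list of 52 small RNAs, which takes in Rpph1 and Rmrp beside small nuclear and nucleolar RNAs, held 15.8%, 17.1%, 11.8% and 17.97% of summed FPKM. Most of that was Rpph1, at a mean of 6.75%, and Rmrp, at 4.02%. By RefSeq class, the 43 small nucleolar RNAs held a mean of 4.78%. FPKM divides by length, so for RNAs as short as a fragment the value depends on how the quantification treated length, which the sources used here do not give. Malat1, an abundant nuclear long noncoding RNA, stood at 1611, 1574, 3158 and 1457 FPKM, highest in wild type 3.

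Among the protein-coding genes described the first places went to products of the upper epidermis. Krt1, Krt10 and Flg2 are left out of this ranking, and their places in it are unknown. Stfa3, a stefin that inhibits cysteine proteases (chr16:36450537-36455392, minus strand), was listed at 11821, 12681, 6107 and 6119 FPKM. Krtdap, a secreted protein of differentiating keratinocytes (chr7:30787896-30791097, plus strand), stood at 9588, 9219, 6307 and 7295 FPKM. Stfa3 was above Krtdap in wild types 1 and 2 and below it in wild types 3 and 4, so their order was not fixed. Asprv1, the retroviral-like aspartic protease of the granular layer that processes profilaggrin (chr6:86628164-86629710, plus strand), stood at 4712, 4410, 5322 and 3970.3 FPKM and was below Krtdap in every library. Dmkn, dermokine, a secreted epidermal glycoprotein, reached 4360.0 ± 506 FPKM, and Calm4, a calmodulin-like calcium-binding protein of skin, 3895 ± 1092 FPKM. Loricrin (Lor, chr3:92080271-92083142, minus strand), the main protein of the cornified envelope, stood at 3441, 3296, 3964 and 3174 FPKM.

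Of the 30 highest coding genes, 10 encode ribosomal proteins. The 30 together held 20.4% ± 1.89 of coding FPKM, of which the ribosomal proteins held 4.73% ± 0.446 and the other 20 genes 15.7% ± 1.64. Besides those already named, the 20 included Perp, a tetraspan protein of desmosomes (3415 ± 751 FPKM), Ly6d, a surface protein of keratinocytes (2604 ± 623 FPKM), Sbsn, suprabasin (2306 ± 311 FPKM), Lgals7, galectin-7 (2234 ± 408 FPKM), and Fabp5, the epidermal fatty acid-binding protein (1963 ± 392 FPKM). Fam25c, a small protein of skin, stood at 2972 ± 695 FPKM. Lars2, the gene of the mitochondrial leucyl-tRNA synthetase, was listed at 1602 ± 370.4 FPKM. No mitochondrially encoded gene was described, and whether the reads counted for Lars2 came from its own messenger RNA was not tested. General genes of the cell were also among the 20, with the elongation factor Eef1a1 at 4305 ± 389 FPKM and beta-actin, Actb, at 1845 ± 87.7 FPKM. Ranks this close together were not separated by the libraries. Of the 29 pairs of neighbours in the list, 1 pair, Krtdap above Asprv1, kept its order in all 4 libraries. BC100530, a symbol for which no RefSeq entry was matched and so outside the coding list, was listed at 5548, 6350.5, 3216 and 3258 FPKM.

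**Figure D2:**
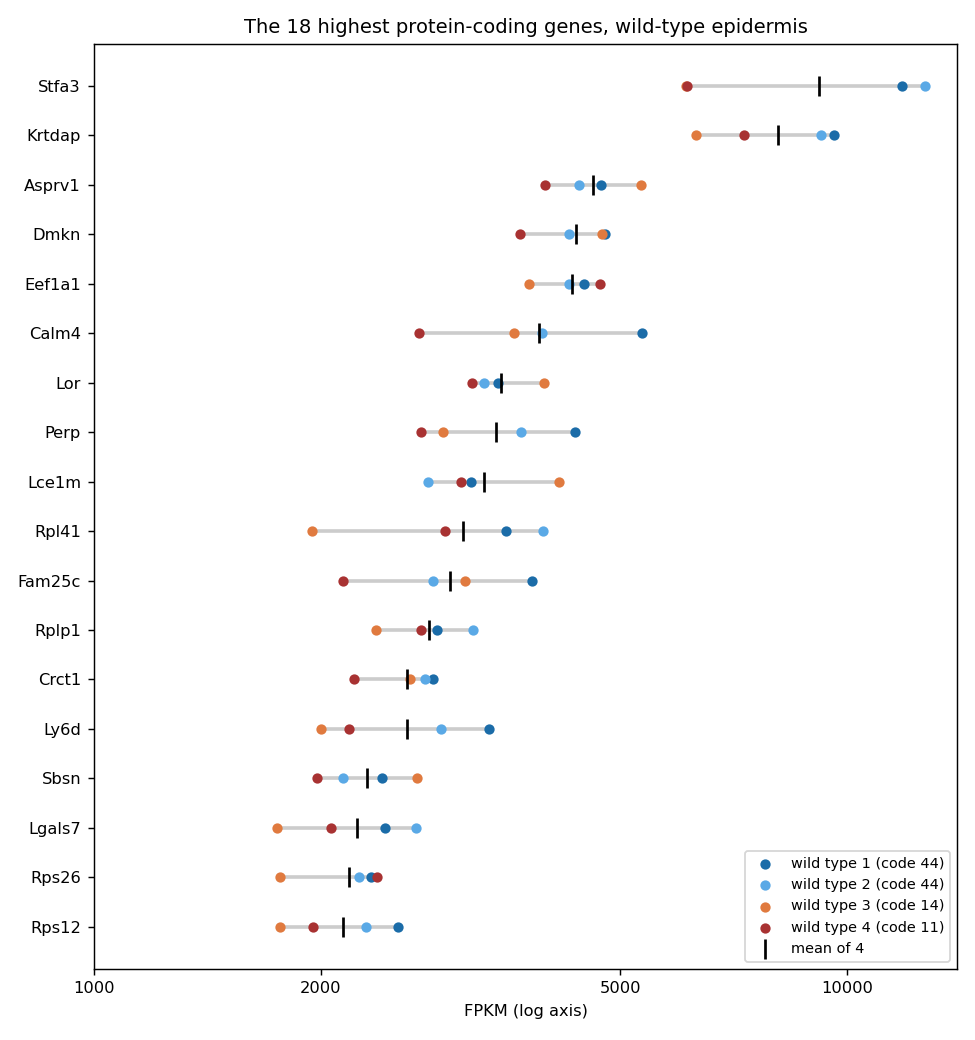
FPKM (log axis) of the 18 highest protein-coding genes described, with 1 point per wild-type library, a grey bar from the lowest to the highest library and a black tick at the mean. Stfa3 and Krtdap lie above the rest at 6107 to 12681 FPKM, and the ranges of nearly all other neighbours overlap.

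A few stretches of the genome held much of the coding FPKM. Protein-coding genes were assigned to windows of 1 Mb by their start, and of 2067 windows with a coding gene the 12 highest held 18.6% of coding FPKM. The first, on chromosome 7 between 30 and 31 Mb, held 3.57% ± 0.304 and contains Krtdap, Dmkn and Sbsn. The window of the stefins on chromosome 16, 36 to 37 Mb, held 2.59% ± 0.839, with a range of 1.80% to 3.45%. On chromosome 3 the window from 92 to 93 Mb, with Lor and most Lce1 genes, held 2.58% ± 0.815. The next window, 93 to 94 Mb, with Lce1m and Crct1, held 1.53% ± 0.192. These neighbouring windows lie in the epidermal differentiation complex, the cluster of genes for envelope precursors. Chromosome 7 carried 7.62% of coding genes and 11.4% ± 0.277 of coding FPKM, and chromosome 3 carried 5.19% of coding genes and 7.97% ± 0.915 of coding FPKM.

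Promoter sequences are shown for 4 of these abundant envelope and surface genes and for 1 histone gene, Hist1h4d, taken up below among the genes that varied most, to set the start of abundant genes beside one that varied. Each window runs from 120 bases before to 10 bases after the RefSeq start (GRCm38.p6), 5′ to 3′ on the gene's strand. Capitals mark TATAAA, the letters of a TATA box, TGACTCA or its reverse complement TGAGTCA, the letters bound by AP-1 proteins such as Fos and Jun, and, in the histone gene, ATTGG, the reverse complement of CCAAT. The windows are chr7:30787785-30787914, plus strand, for Krtdap, chr3:92083133-92083262, minus strand, for Lor, chr14:34355384-34355513, minus strand, for Fam25c, chr3:93019052-93019181, minus strand, for Lce1m, and chr13:23581448-23581577, plus strand, for Hist1h4d.
Krtdap: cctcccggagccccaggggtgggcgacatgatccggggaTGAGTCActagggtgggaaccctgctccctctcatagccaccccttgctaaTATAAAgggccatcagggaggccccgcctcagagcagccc
Lor: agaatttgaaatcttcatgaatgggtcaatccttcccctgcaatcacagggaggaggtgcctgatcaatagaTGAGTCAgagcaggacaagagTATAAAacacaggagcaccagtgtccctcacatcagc
Fam25c: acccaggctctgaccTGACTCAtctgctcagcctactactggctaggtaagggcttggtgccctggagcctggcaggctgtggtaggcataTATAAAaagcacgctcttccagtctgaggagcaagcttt
Lce1m: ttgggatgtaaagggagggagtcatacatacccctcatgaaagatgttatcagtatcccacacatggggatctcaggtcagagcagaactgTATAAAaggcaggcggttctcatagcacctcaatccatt
Hist1h4d: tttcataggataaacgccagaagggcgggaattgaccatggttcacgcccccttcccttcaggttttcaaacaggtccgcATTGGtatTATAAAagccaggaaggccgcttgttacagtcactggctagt

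All 5 windows hold TATAAA, its first base 27 to 32 bases before the start, and 3 of them (Krtdap, Lor and Fam25c) hold the AP-1 letters on either strand. The shares of promoters with these letters differed between gene lists. TATAAA on the gene's strand between 45 and 16 bases before the start was present in 6 of the 21 envelope genes with a promoter entry (28.6%), 15 of 57 histone genes (26.3%), 2 of 19 late cornified envelope genes (10.5%), 9 of 79 of the 100 highest coding genes other than ribosomal proteins (11.4%) and 2.17% of the 11855 coding genes with an entry, so the 5 windows shown are not typical of abundant genes. TGACTCA or TGAGTCA anywhere in the 300 bases from 250 before to 50 after the start was present in 6 of 21 envelope genes (28.6%), in 0 of 19 late cornified envelope genes, in 0 of 57 histone genes and in 4.88% of all coding genes with an entry. CCAAT or ATTGG was present in 84.2% of histone promoters and 42.3% of all. None of the 3 strings can contain another. They were kept after a wider search of these promoters, so the shares are descriptions, and a match is not a shown binding site.

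The list of cornified envelope and terminal differentiation genes held 5.82%, 5.42%, 6.28% and 4.804% of summed FPKM in wild types 1 to 4, a mean of 5.58% ± 0.624. Of its 27 genes described, 25 were at or above 1 FPKM in all 4 libraries and 18 had a mean of at least 100 FPKM, with a median of 201 FPKM. After Krtdap, Asprv1, Dmkn, Lor, Crct1 and Sbsn came Calml3, a calmodulin-like protein, at 653 ± 127 FPKM, and Cdsn, corneodesmosin, the glue of squames, at 477, 451, 799 and 487 FPKM. Cdsn was alike in 3 libraries and highest in wild type 3. Involucrin, Ivl, an early envelope precursor, stood at 216, 215, 152 and 196 FPKM. Caspase-14, Casp14, a protease of terminal differentiation, was among the steadier members at 405, 374, 359 and 353 FPKM. The transglutaminases that cross-link the envelope, Tgm1 and Tgm3, stood at 148 ± 26.5 FPKM and 70.99 ± 16.5 FPKM. Flg and Hrnr are not analysed here.

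The late cornified envelope genes, small cysteine-rich proteins added last to the envelope, held 2.35% ± 0.714 of summed FPKM, and 18 of 21 were at or above 1 FPKM in all 4 libraries. The order within the family was steep. Lce1m stood at 3171, 2775, 4143 and 3076 FPKM, Lce1c at 1007, 762, 1346 and 815 FPKM and Lce1a1 at 909, 764, 1324 and 857 FPKM, whereas the Lce3 members Lce3a and Lce3b stood at 1.85 and 2.53 FPKM. Wild type 3 was the highest library for 20 of the 21 genes, and wild type 2 the lowest for 17. Lce1f, at 172, 136, 445 and 162 FPKM, showed this most plainly, as 3 libraries lay close together below wild type 3. Over all genes with a mean of at least 20 FPKM and a value in every library, wild type 3 was highest for 18.6%. The share of all genes lowest in wild type 2 was not counted. The Lce1 genes are near-identical copies, and reads shared between them may have been divided in ways the FPKM do not show.

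The small proline-rich proteins, cross-bridges of the envelope that rise in stressed and internal epithelia, were far lower, at 0.0568% ± 0.0381 of summed FPKM, and 6 of 14 were at or above 1 FPKM in all 4 libraries. Sprr1a stood at 116, 63.2, 191 and 63.98 FPKM and Sprr1b at 106, 34.7, 173 and 54.2 FPKM. Wild types 1 and 3 were above wild types 2 and 4 for both genes, and for 11 of the 14 members. The share of all genes with that order was not counted. Repetin (Rptn), another envelope precursor, followed the same order at 32.6, 8.39, 74.03 and 10.6 FPKM. Sprr3, an envelope protein of internal epithelia, was listed at 15.9, 0, 11.3 and 3.77 FPKM. The Sprr2 genes are close copies of each other, so their single values are uncertain.

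The keratins are described by the layer they are known from. The basal pair Krt14 and Krt5, the filament proteins of dividing keratinocytes, stood at 417, 613, 1215 and 1253 FPKM and at 358, 554, 891 and 1260.4 FPKM. Both were lowest in wild type 1 and highest in wild type 4, and the highest library was 3.01 times the lowest for Krt14 and 3.52 times for Krt5. Krt15, a further basal keratin, stood at 256, 428, 396 and 699 FPKM. Together the 3 held 0.187%, 0.290%, 0.518% and 0.598% of summed FPKM. In RNA of a whole tissue, fewer cells of a type and less RNA per cell cannot be told apart, here and for every list below.

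Of the other keratins of the interfollicular epidermis, 6 of 12 were at or above 1 FPKM in all 4 libraries, beside 65.3% of all genes. Krt23, Krt80, Krt79 and Krt78, type I and type II keratins of differentiating cells, stood at 194 ± 15.4 FPKM, 183 ± 40.2 FPKM, 129 ± 14.3 FPKM and 105 ± 20.2 FPKM. Krt77 reached 80.2 ± 26.02 FPKM. Krt2, the keratin of the upper layers of adult mouse skin at some body sites, was at 0.201, 0.165, 0.0955 and 0.355 FPKM, below 1 FPKM in every library. Krt4 and Krt13, the pair of the oral and oesophageal lining, stood at 20.5, 0.104, 14.1 and 0.621 FPKM and at 26.4, 0.979, 19.2 and 4.03 FPKM. They were high in wild types 1 and 3 and low in wild types 2 and 4, the order also seen in Sprr1b and Rptn.

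Keratins of wounded and hyperproliferating skin were present. Krt17 stood at 137, 187, 345 and 386 FPKM, and Krt16 at 158, 58.2, 298 and 39.7 FPKM. Krt16 was highest in wild type 3 and lowest in wild type 4, whereas Krt17 was highest in wild type 4 and lowest in wild type 1, so these 2 did not share an order. Krt6a and Krt6b, their type II partners, stood at 13.7 ± 13.4 FPKM and 17.4 ± 16.5 FPKM. Keratins of simple epithelia were low: Krt8 stood at 1.71 ± 0.658 FPKM and Krt18 at 0.400 ± 0.118 FPKM. Of 17 keratins of hair and inner root sheath, 1 was at or above 1 FPKM in all 4 libraries.

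The genes that attach basal cells to the basement membrane were detected at moderate levels, with 19 of 20 at or above 1 FPKM in all 4 libraries and a median of 17.997 FPKM. Col17a1, the transmembrane collagen of hemidesmosomes, stood at 41.8, 59.1, 111 and 134 FPKM. Integrin alpha-6 (Itga6), integrin beta-4 (Itgb4) and integrin beta-1 (Itgb1) stood at 21.2, 25.4, 53.6 and 66.3 FPKM, at 9.18, 11.96, 27.96 and 27.6 FPKM and at 11.6, 13.1, 30.3 and 33.9 FPKM. In each of these 4 genes wild types 1 and 2 were below wild types 3 and 4. Lamb3, a chain of laminin-332, was at 29.8 ± 16.6 FPKM. Plectin (Plec), which also links keratins elsewhere in the cell, was nearly level at 87.4, 72.3, 95.2 and 88.8 FPKM.

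Cell-to-cell junctions were more abundant than these genes and steadier than them. The 17 desmosome genes held 1.46% ± 0.165 of summed FPKM, with a median of 159.9 FPKM. Of the 10 with a mean of at least 20 FPKM and a value in each library, 0 varied as much as 2-fold, beside 9.5% of all such genes. Their highest library was a median of 1.34 times the lowest, beside 3.13 for basal adhesion genes. Over all such genes it was also 1.34, so desmosome genes were no steadier than genes in general. Desmoplakin (Dsp), the plaque protein that takes keratin filaments, stood at 1282, 1086, 963 and 1021 FPKM. The plaque proteins Pkp1, plakophilin-1, and Jup, plakoglobin, stood at 706 ± 90.4 FPKM and 477 ± 55.5 FPKM. The cadherins of upper layers, Dsc1 and Dsg1a, stood at 617 ± 76.2 FPKM and 286 ± 54.4 FPKM, and Dsc3 at 245 ± 20.96 FPKM. Dsg3, the desmoglein of the lower layers, was at 14.7, 11.2, 22.7 and 24.999 FPKM, lower in wild types 1 and 2. Dsg1c, Pkp2 and Dsg4 were below 1 FPKM on average.

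Of the adherens and tight junction genes, 18 of 20 were at or above 1 FPKM in all 4 libraries. Beta-catenin (Ctnnb1), which couples cadherins to actin, stood at 251 ± 72.8 FPKM, E-cadherin (Cdh1) at 161 ± 11.5 FPKM, and the barrier claudins Cldn1 and Cldn4 at 232 ± 41.02 FPKM and 147 ± 21.5 FPKM. Of the connexins, Gja1, which forms the most widespread gap junction channel, led with 311 ± 58.4 FPKM, and Gjb2 stood at 118 ± 20.6 FPKM.

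Proteases of the upper layers and their inhibitors were abundant. The kallikrein Klk7, which cuts corneodesmosin during shedding, stood at 674, 604, 698 and 499 FPKM, and Klk5, which activates it, at 313, 305, 265 and 234 FPKM. Spink5, the inhibitor of both, stood at 473, 354, 490.4 and 303 FPKM. Klk7 was above Spink5 and Spink5 above Klk5 in all 4 libraries. Bleomycin hydrolase (Blmh), which helps break filaggrin down to amino acids, stood at 486 ± 65.999 FPKM. The stefins and cathepsins held 2.82%, 2.97%, 1.95% and 1.64% of summed FPKM, mostly through Stfa3, with Stfa1 at 1034 ± 303 FPKM, Stfa2 at 672 ± 174 FPKM and cystatin C (Cst3) at 529 ± 58.97 FPKM. Cathepsin D (Ctsd), a lysosomal aspartic protease, led the proteases of that list at 484 ± 45.8 FPKM. Among clade B serpins, Serpinb12 and maspin (Serpinb5) led at 556 ± 114 FPKM and 406 ± 45.3 FPKM. The stefin A genes and the Serpinb3 genes are families of close copies, so single members are uncertain.

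Lipid genes of the barrier were expressed throughout the pathway. Of the genes of ceramide synthesis and processing, 32 of 34 were at or above 1 FPKM in all 4 libraries, with a median of 72.3 FPKM, beside 4.72 over all genes. Elovl4, which makes the ultra-long fatty acids of epidermal ceramides, stood at 687, 595, 563 and 509 FPKM. Elovl1, which lengthens very long chain fatty acids before it, stood at 577, 508, 552 and 516 FPKM. The steps after elongation were lower. Ceramide synthase 3 (Cers3) stood at 170.2, 109, 157 and 109 FPKM, the lipoxygenases Alox12b and Aloxe3, which oxidise the linoleate of acylceramides, at 279 ± 35.5 FPKM and 87.9 ± 20.8 FPKM, and Abca12, the lipid transporter of lamellar granules, at 207 ± 39.1 FPKM.

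Of the genes that make, lengthen and desaturate fatty acids, 23 of 27 were at or above 1 FPKM in all 4 libraries. After Fabp5, Dbi, the acyl-CoA-binding protein, was highest at 598 ± 159 FPKM. All 23 cholesterol synthesis genes described were at or above 1 FPKM in each library, in a narrow band with a lowest mean of 11.8 and a highest of 197 FPKM. They were led by Sult2b1, which sulphates cholesterol, at 197 ± 27.4 FPKM, and Hmgcs1, HMG-CoA synthase, at 161 ± 22.2 FPKM. Wild type 1 was highest for 17 of the 23, beside 28.9% of all genes with a mean of at least 20 FPKM and a value in every library. Of the 22 tested for spread, 0 varied as much as 2-fold, beside 9.5% of all genes. The median ratio of highest to lowest library was 1.38 for the 22 and 1.34 for all genes, so they were no steadier than genes in general. Of triacylglycerol genes, 18 of 22 reached 1 FPKM in all 4 libraries, beside 65.3% of all genes. Dgat2, the last enzyme of triacylglycerol synthesis, stood at 332 ± 39.1 FPKM, and Lipm, an epidermal lipase, at 152 ± 20.7 FPKM. Plin5, a lipid droplet coat protein of oxidative tissue, was listed at 0 in all 4.

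Of 54 transcription regulators with a part in the epidermis, 50 were at or above 1 FPKM in all 4 libraries, with a median of 37.5 FPKM. Fos had the highest mean of the list, followed by Klf4, Junb and Jun. Fos, Junb and Jun are factors that cells induce within minutes of a stimulus. Fos stood at 1341, 1406, 435 and 1074 FPKM, Junb at 601, 479.9, 229 and 391 FPKM and Jun at 423, 524, 149 and 462 FPKM. Wild type 3 was the lowest library for all 3, and Fos stood at 1074 FPKM or more in the other libraries. Zfp36, an RNA-binding protein that speeds the decay of such messages, stood at 396, 397, 118 and 300.3 FPKM. Atf3, another stress-induced factor, stood at 125, 181, 30.9 and 145 FPKM, and Nr4a1, an orphan nuclear receptor induced in the same way, at 71.5, 77.1, 12.4 and 68.3 FPKM. Both were again lowest in wild type 3.

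Several factors of the differentiation programme were steadier than these. Klf4, needed for the barrier, stood at 486, 518, 347 and 460.2 FPKM. Hopx, Cebpb and Cebpa, which act in differentiating keratinocytes, stood at 242 ± 36.7 FPKM, 223 ± 47.5 FPKM and 163 ± 26.9 FPKM, and the grainyhead factors Grhl1 and Grhl3 at 168 ± 33.4 FPKM and 68.2 ± 14.02 FPKM. Zfp750 lay between Grhl1 and Grhl3 in mean level. Trp63, the master regulator of the basal layer, had another pattern, at 59.2, 85.8, 64.02 and 140.0 FPKM, highest in wild type 4 and lowest in wild type 1. Pparg and Ppara, lipid-sensing nuclear receptors, were at 0.642 and 0.340 FPKM.

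Immune and alarm genes of the keratinocyte spanned a wide range of levels. Of 28 described, 15 reached 1 FPKM in all 4 libraries, beside 65.3% of all genes. Il1f5, the interleukin-36 receptor antagonist, stood at 352, 271, 432 and 258 FPKM. Interleukin-18 (Il18) stood at 138, 126, 136 and 124 FPKM, nearly level. Cxcl14, a chemokine made by epithelia, was at 45.04, 61.2, 89.8 and 157 FPKM, an order that matched that of Krt5. The defensin Defb1 stood at 72.9 ± 14.3 FPKM. Camp, the cathelicidin precursor, was listed at 0 in all 4, and S100a8 and S100a9, alarm proteins of inflamed epidermis, stood at 0.432, 1.498, 2.98 and 1.69 FPKM and 1.07, 0.850, 4.095 and 1.303 FPKM. In contrast, S100a11 and S100a14, S100 proteins of resting epidermis, stood at 394 ± 34.6 FPKM and 327 ± 34.96 FPKM. Metallothionein Mt1, which binds zinc, stood at 174 ± 22.2 FPKM. After Ly6d, the Ly6 family members Lypd5 and Lypd3 stood at 435 ± 82.9 FPKM and 409 ± 96.7 FPKM.

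Genes of protein synthesis took the largest share of any list of coding genes. The 82 cytosolic ribosomal protein genes held 14.5%, 14.5%, 13.1% and 13.97% of summed FPKM, a mean of 14.001% ± 0.676, and all 82 were at or above 1 FPKM in each library, with a median of 812 FPKM. Rpl41 led at 3525, 3949, 1949.6 and 2925 FPKM, followed by Rplp1 at 2856, 3184, 2373 and 2721 FPKM. Wild type 3 was the lowest library for 73 of the 82, and for 65 of them after the libraries were scaled to a common median ratio. Rps27 went against its family, at 4.83, 3.22, 3.61 and 70.8 FPKM, far higher in wild type 4 than in the other 3. Ribosomal protein genes have many processed pseudogenes, and how reads were divided between them was not tested. The 79 nuclear-encoded genes of the respiratory chain and ATP synthase held 1.58% ± 0.107, led by Cox6b1 at 349 ± 59.3 FPKM and Atp5b at 343 ± 42.5 FPKM. Wild type 3 was the lowest library for 62 of them, and for 48 of them after that scaling, in which its factor of 0.951 was the lowest. The share of all genes lowest in wild type 3 was not counted.

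Genes of dividing cells were low in level and uneven between libraries. All 40 genes of DNA replication and mitosis were described, and 37 were at or above 1 FPKM in each library, with a median of 7.83 FPKM. Pcna, the sliding clamp of DNA polymerase, stood at 42.04, 47.3, 55.1 and 85.2 FPKM. Top2a, the topoisomerase of dividing cells, stood at 9.37, 15.96, 24.8 and 39.4 FPKM, and Mki67, the proliferation marker Ki-67, at 7.201, 8.29, 19.4 and 24.5 FPKM. Wild type 1 was the lowest library for 35 of the 40 genes and wild type 4 the highest for 35. The cyclin Ccnd2 had the same order, at 17.4, 24.6, 48.9 and 85.8 FPKM. Over all genes with a mean of at least 20 FPKM and a value in every library, wild type 4 was highest for 29.02%. Most of the 40 genes lay below that level, and the share of all genes lowest in wild type 1 was not counted.

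Replication-dependent histones, whose messages lack a poly(A) tail and are made during DNA synthesis, held 0.343%, 0.486%, 0.643% and 1.07% of summed FPKM. Of the 63 genes, 48 were highest in wild type 4 and 44 lowest in wild type 1. Wild type 4 was highest for 29.02% of all genes with a mean of at least 20 FPKM and a value in every library. The share of all genes lowest in wild type 1 was not counted. Hist1h4d, whose promoter is printed above, stood at 43.9, 68.9, 150.0 and 474 FPKM. Hist1h4c, at 40.4, 50.1, 88.1 and 385 FPKM, and Hist1h3c, at 11.7, 13.9, 46.5 and 137 FPKM, had the same order. The copies of each histone are close to identical in sequence, so single genes are uncertain and the sum is the firmer value.

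Markers of other cell types ranged from 0 to levels above the median gene. Of 10 endothelial markers 6 were described, and Cdh5, Kdr, Cldn5 and Emcn are not analysed here. The 6 were near 0, with 0 of 6 at or above 1 FPKM in all 4 libraries. Pecam1, the defining adhesion protein of vessels, stood at 0.0639, 0.152, 0.495 and 0.116 FPKM. Of 8 mast cell markers 3 were described, and the receptor gene Fcer1a was listed at 0 in all 4. Melanocyte markers were present at summed levels of 16.4, 36.4, 56.3 and 95.5 FPKM. Dct, an enzyme of melanin synthesis, stood at 5.77, 14.01, 20.9 and 38.9 FPKM, and Pmel, the fibril protein of melanosomes, at 4.18, 9.04, 13.3 and 23.3 FPKM, both with the libraries in the order of Krt5. Langerhans and myeloid markers summed to 76.01, 90.2, 118 and 93.5 FPKM, with C1qc, a complement chain of macrophages, at 15.7 ± 2.27 FPKM. Cd207 of that list is not analysed here. Cd3g, a chain of the CD3 complex of T cells, stood at 2.86 ± 0.764 FPKM. Chga, a granule protein of Merkel cells, was at 35.6 ± 14.3 FPKM, but 1 of 12 Merkel cell markers reached 1 FPKM in all 4 libraries.

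Fibroblast markers summed to 134, 181, 228 and 329 FPKM. Most of that was Postn, periostin, at 68.6, 97.4, 93.5 and 178 FPKM, and Dcn, decorin, at 25.2, 22.5, 59.9 and 75.2 FPKM, whereas Col1a1 and Col3a1, the collagens that define fibroblasts, stood at 1.41, 7.58, 4.73 and 3.105 FPKM and 2.36, 7.48, 8.15 and 4.92 FPKM. Skeletal muscle markers summed to 4.82, 7.48, 85.3 and 7.89 FPKM, and adipocyte markers to 13.3, 7.88, 48.5 and 8.55 FPKM. Of the 8 adipocyte markers 3 were described, and 1 was at or above 1 FPKM in all 4 libraries. The highest of the 3 had a mean of 15.8 FPKM, beside a mean sum of 19.6 FPKM, so that sum was mostly 1 gene. Wild type 3 was the highest library for all 10 muscle markers. It was highest for 18.6% of all genes with a mean of at least 20 FPKM and a value in every library, a level none of the 10 reached. Acta1, the actin of skeletal muscle, stood at 0.0766, 0.145, 22.9 and 0.423 FPKM, Tnnc2, a troponin, at 0.0909, 0.242, 10.5 and 0.206 FPKM, and Cfd, adipsin of fat cells, at 0.0713, 0.186, 13.8 and 0 FPKM. By mean, Mylpf, a myosin light chain, led the muscle markers at 6.91 ± 5.42 FPKM. Xist and Lce1f were also highest, and Fos lowest, in wild type 3. The part of muscle and fat genes in the other values of wild type 3 was not tested.

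**Figure D3:**
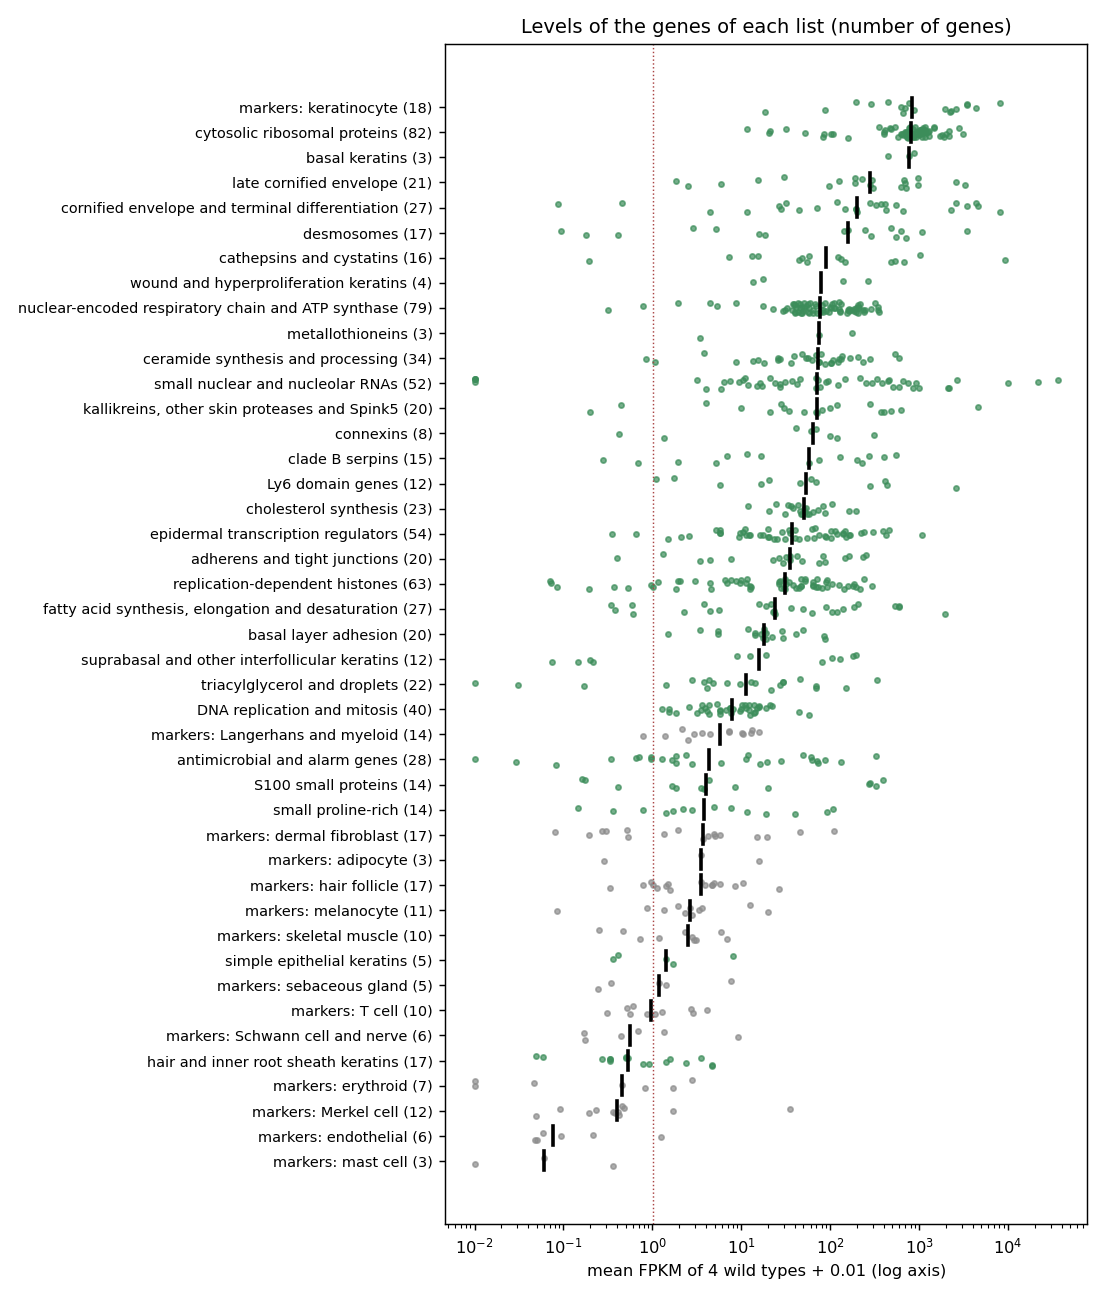
Mean FPKM of the 4 wild types plus 0.01 (log axis) for each gene of 43 lists, 1 point per gene, with a black tick at the list's median and a dotted line at 1 FPKM. Lists of keratinocyte genes and general genes are green and markers of other cell types grey. Keratinocyte markers lie highest (median 820.2), and the 6 endothelial and 3 mast cell markers described lie lowest.

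The spread between libraries was measured as the ratio of the highest to the lowest. For the 3391 genes with a mean of at least 20 FPKM and a value in every library, the highest library was a median of 1.34 times the lowest. The ratio was under 1.2 for 673 genes (19.8%), at least 2 for 322 (9.5%) and at least 4 for 42. Without wild type 3 the count at 2-fold was 153. Among genes with a mean of at least 100 FPKM the steadiest was Btg1, an antiproliferative gene, at 127, 128, 121 and 125 FPKM. The translation factor Eif4g2, at 114, 106, 115 and 114 FPKM, and Zfand6, a zinc finger protein, at 256, 241, 239.8 and 237 FPKM, were also among the steadiest. Casp14 and Il18, named above, also stayed within 1.15 and 1.12 times.

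The share of genes that varied differed between lists. Beside the 9.5% of all genes that varied at least 2-fold, 32 of 37 histones, 11 of 17 late cornified envelope genes, 5 of 7 basal adhesion genes and all 4 replication genes above 20 FPKM did so, against 4 of 81 ribosomal protein genes and 1 of 27 ceramide genes. Wild types 1 to 4 were the highest library for 22, 67, 96 and 137 of the 322 genes and the lowest for 119, 86, 95 and 22. Over all 3391 genes they were highest for 28.9%, 23.5%, 18.6% and 29.02%. Among the largest ratios after Xist were Rps27 (21.95), Hist1h3c (11.7), Hist1h4d (10.8), Snord47 (10.3), Hist1h4c (9.54), Rptn (8.82), Krt16 (7.51) and Nr4a1 (6.24). The small RNAs Snora70, at 24.3, 9.11, 8.53 and 52.5 FPKM, and Rnu12, at 29.1, 53.2, 36.4 and 172 FPKM, were also among the 12.

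**Figure D4:**
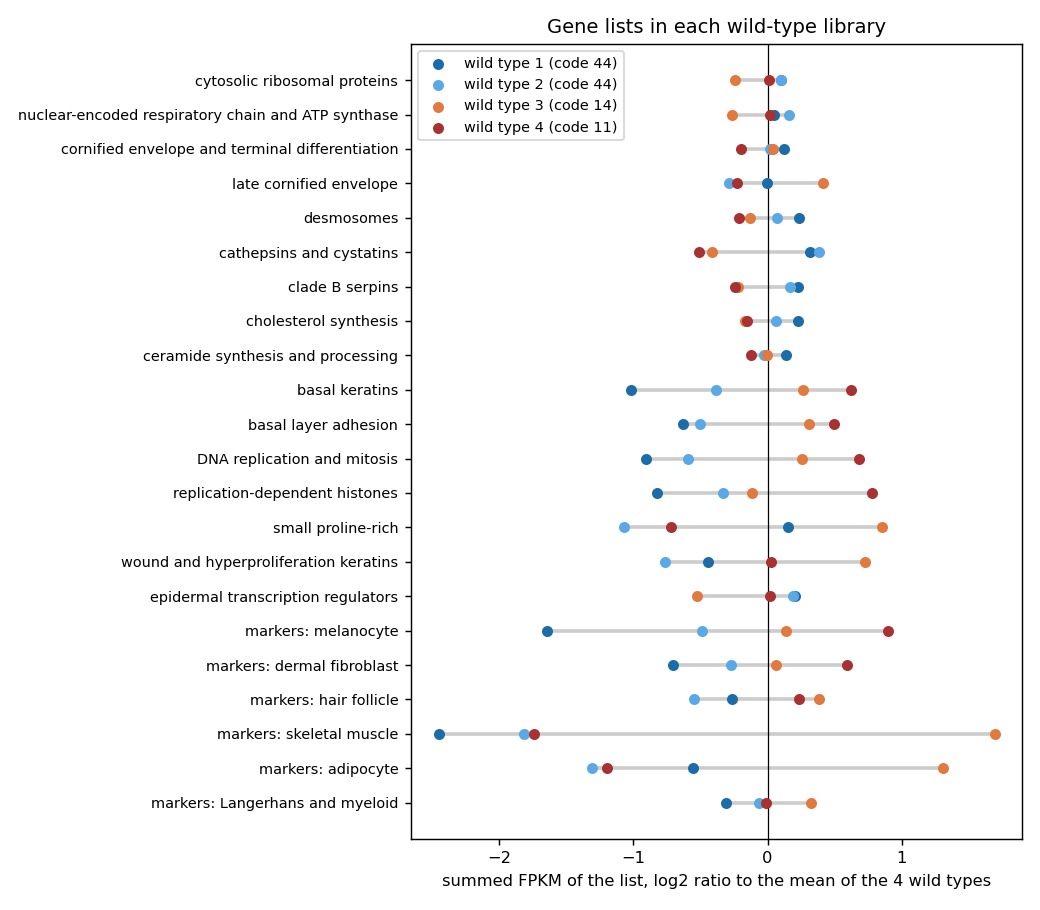
Summed FPKM of 22 gene lists in each wild-type library, as the log2 ratio to the mean of the 4 libraries, with a grey bar from the lowest to the highest. Ribosomal, desmosome and lipid lists stay near 0, the lists of basal and dividing cells are lowest in wild type 1 and highest in wild type 4, and muscle and adipocyte markers are highest in wild type 3.

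The library plots show several orders among the wild types. The summed levels of basal keratins, basal adhesion genes, replication genes, histones, melanocyte markers and fibroblast markers were lower in wild types 1 and 2 than in wild types 3 and 4, although single members such as Krt15, Postn and Col1a1 had other orders. Fos, Jun, Junb, Zfp36, Atf3 and Nr4a1, a group picked after their values were seen, were each lowest in wild type 3. The summed late cornified envelope genes, muscle markers and adipocyte markers were highest in wild type 3. Krt16, Rptn, Sprr1b, Krt4 and Krt13 were higher in wild types 1 and 3 than in wild types 2 and 4, as were 19 of the 21 late cornified envelope genes and 11 of the 14 small proline-rich genes. This grouping was also picked after the values were seen. Its share over all genes was not counted, so these counts have no background beside them.

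**Figure D5:**
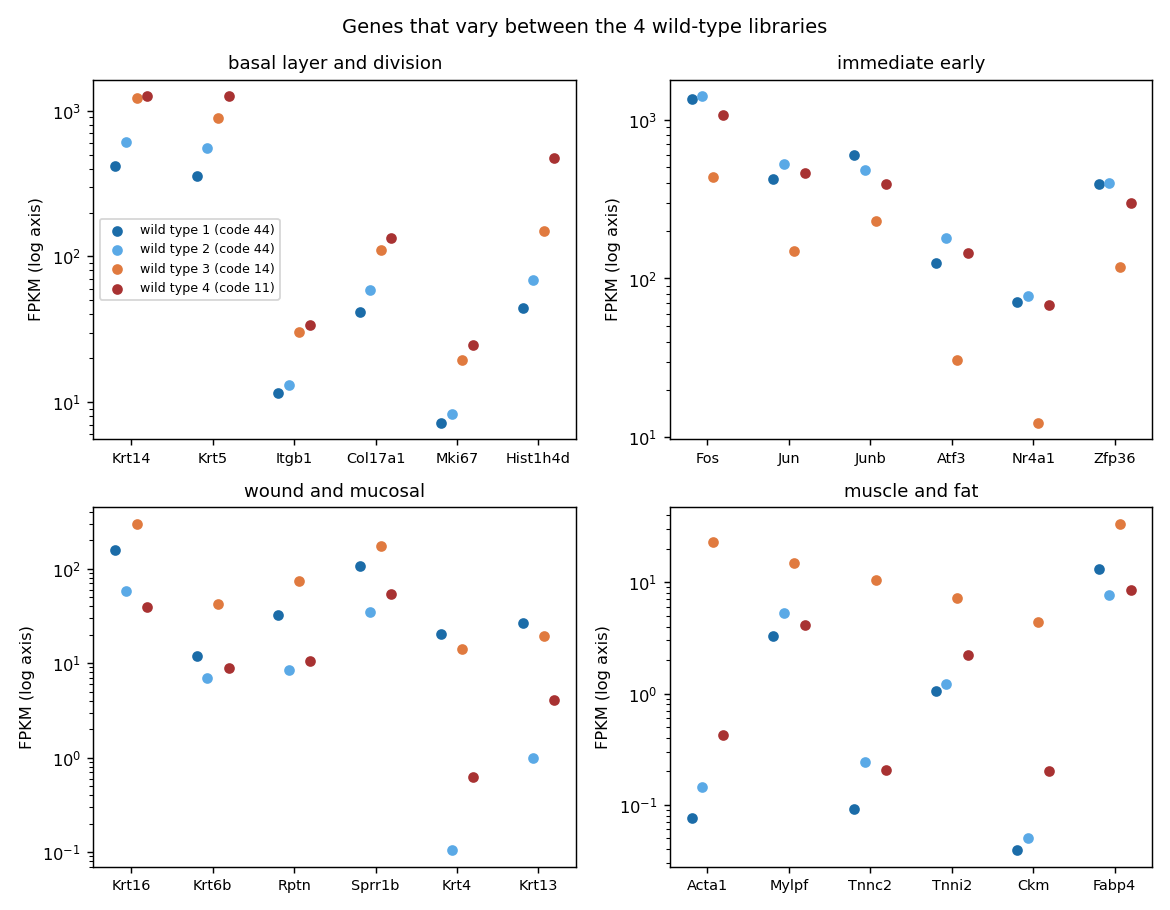
FPKM (log axes) of 24 genes in the 4 wild-type libraries, 1 point per library, in 4 panels. The plotted genes of the basal layer and division are lowest in wild types 1 and 2, the plotted immediate early genes lowest in wild type 3, those of wounded and mucosal epithelium higher in wild types 1 and 3, and those of muscle and fat highest in wild type 3.

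The title code is shared by 2 of the wild types, and the 2 libraries with code 44 (wild types 1 and 2) were compared with the 2 with other codes by limma on log2(FPKM + 1). With 2 libraries on each side, 1 of 11451 genes (0.00873%) passed a Benjamini-Hochberg adjusted p of 0.05. It was Scarna3b, a small Cajal body RNA, listed at 0, 0, 9.03 and 6.997 FPKM, adjusted p = 0.0380. No gene passed with a pseudocount of 5, with no filter on low values, with at least 1 FPKM required in all 4 libraries or after median-ratio scaling, where the smallest adjusted p was 0.0546 to 0.128. At an unadjusted p of 0.05 the count was 2593 (22.6%), of which 2269 (19.8% of genes tested) were lower in the code 44 libraries and 324 higher. An adjusted p under 0.1 was reached by 904 genes. The count that passed depended on the libraries: it was 3 without wild type 1, 5 without wild type 2, 242 without wild type 3 (234 of them lower in code 44) and 77 without wild type 4 (38 lower). In those fits 1 side has 1 library, which is assumed to vary like the others. The median difference over all genes, others minus code 44, was 0.15 on the log2 scale.

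The lists are counted beside that 19.8%, and no list was tested. All 40 replication genes were lower in the code 44 libraries at an unadjusted p of 0.05, with a median difference of 1.13, as were 17 of 20 basal adhesion genes (1.09), 35 of 56 histones (0.94) and 9 of 10 melanocyte markers (0.98). Of the 25 envelope genes tested, 1 was lower and 6 were higher, and of the 82 ribosomal protein genes 0 were lower and 3 higher. No single gene of these lists passed the adjusted threshold. In simulated data this test called 0% of genes changed by 1 on the log2 scale, so the lack of calls does not show that these genes were alike. Ube2c, a ubiquitin-conjugating enzyme of mitosis, differed by 1.46 ± 0.15 (SE) on the log2(FPKM + 1) scale, adjusted p = 0.0713, with means of 7.21 and 21.5 FPKM. Top2a differed by 1.28 ± 0.32 (SE) on the log2(FPKM + 1) scale, adjusted p = 0.0972, and Itgb1 by 1.31 ± 0.15 (SE) on the log2(FPKM + 1) scale, adjusted p = 0.0713. By level alone, among genes with a mean of at least 20 FPKM, both code 44 libraries were below both others for 18.2% and above both for 29.9%, and for all 7 basal adhesion genes and 29 of 37 histones they were below. After scaling the libraries to a common median ratio these shares of all genes were 24.5% and 24.9%. The title code cannot be told apart from any other way in which the pairs of libraries differ. A longer number in the column headers, of a meaning not given, sets wild type 2 apart by its leading digits, and with 1 library it could not be compared.

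The same contrast within the 4 knockout libraries, 2 with code 44 and 2 with others, gave another set of calls. Of 11427 genes, 28 (0.245%) passed, all lower in the code 44 libraries, and at an unadjusted p of 0.05 there were 1076 lower (9.42%) and 1326 higher. The small proline-rich genes held 7 of the 28, of 11 tested, with a median difference of 3.72 on the log2(FPKM + 1) scale. Genes of DNA replication and mitosis had a median difference of 0.96, with 15 of 40 lower and 0 higher at the unadjusted threshold, and histones 1.03, with 24 of 56 lower and 1 higher. Basal adhesion genes had a median of 0.38, with 7 of 20 lower. Whether the contrast differs between genotypes was not tested.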

How the data were processed

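Total RNA of epidermis from newborn C57BL/6J mice was sequenced on an Illumina NextSeq 500 after ribosomal RNA depletion and TruSeq stranded library preparation, per the labels' protocols. The authors deposited 1 table of FPKM values per gene symbol and library. Per the submitters' processing notes, mm10 was the genome build. The sources used here do not give the aligner, the quantifier, the annotation or whether strand was used, so overlapping genes on opposite strands may share reads, and depth is unknown. A gene is in the table only where the first knockout library has a value. Genes outside it are not analysed here. A missing value was counted as 0, and 0 columns of the table were left unused.

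From these values, levels, ranks, shares of summed FPKM and the ratio of the highest to the lowest library were computed over the 4 wild types with Python 3.11.15 and pandas 2.3.3. Title codes were compared with limma (3.58.1, R 4.3.3, trend option on) using log2(FPKM + 1) for genes with at least 1 FPKM in at least 2 libraries, with Benjamini-Hochberg adjustment over all genes tested. The scale understates changes of low genes, the test is two-sided, and its p-values measure only the spread between these libraries. The code was tested on simulated data with 2 libraries on each side. It called 0% of genes changed by 1 on the log2 scale, 74.3% of those changed by 2 and 95.6% of those changed by 4. Coding status was taken from RefSeq, where 15912 of 15991 symbols matched, gene positions from GENCODE M21 (GRCm38), and promoters from a RefSeq table of GRCm38.p6 with an entry for 11855 of 14943 coding genes.

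Named genes were Zfp750, the 30 highest coding and 10 highest noncoding genes, the 4 highest members and any member at 0 in each list, the 12 largest and 12 smallest ratios, the 10 largest called differences by title code in each direction, the 4 genes listed at 0, and other list members as examples. Not each of these is given with its value, and some are not reported here. Col1a1, Dsg3 and the other examples were picked after their values were seen, and Atf3 and BC100530 fall outside the rule. The members, the gene lists and the tests were chosen with earlier results of these data known. Alternatives were other pseudocounts, filters, denominators and scalings, the median of the libraries and leaving out each library.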

Additional observations from a re-analysis of the deposited data

Results flagged for a closer look

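Among 216 values checked (162 genes named in the text, 43 summed lists and measures of the libraries), 18 had 1 library whose gap to the nearest other library took more of the range of the 4 than Dixon's test allows for 4 samples. Chance alone flags about 1 in 20 unselected sets, but some of these genes were named for their spread or after their values were seen, and related genes are not independent, so the count cannot be read against that rate. Wild type 3 was the library apart in 14 of the 18, wild type 4 in 3 and wild type 2 in 1.

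Wild type 3 was apart in genes of muscle and fat. Acta1 stood at 22.9 FPKM there against 0.0766 to 0.423 in the others, Tnnc2 at 10.5, and Cfd at 13.8. The summed skeletal muscle markers were 85.3 FPKM, the 3 adipocyte markers described 48.5 and the erythroid markers 12.2 in that library. It was apart too in Xist, at 118 FPKM, and in Malat1, at 3158 FPKM. Of envelope and stress genes, it was highest in Cdsn (799 FPKM), Lce1f (445 FPKM), Krt6b (42.0 FPKM) and S100a9 (4.10 FPKM). Snord99 was listed at 10781 FPKM in it and at 0 in the other 3. Nr4a1 was lowest in it, at 12.4 FPKM.

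Wild type 4 was highest in Hist1h4c, at 385 FPKM, in Rps27, at 70.8 FPKM, and in the spliceosomal RNA Rnu12, at 172 FPKM. Wild type 2 was lowest in Eif4g2, at 106 FPKM, though the 4 libraries were within 1.08 times of each other for that gene.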

How the results depend on the processing

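The choice of denominator moved the shares of the most abundant genes. The 52 small RNAs, Rpph1 and Rmrp among them, were left out, or protein-coding genes alone were kept. The 10 most abundant genes then held 11.1% and 11.1% in place of 20.6%, and the 100 most abundant 36.1% and 35.8% in place of 44.03%. The upper 50% was made up of 264 and 273 genes in place of 155. Without small RNAs the share of envelope genes was 6.61% and that of ribosomal proteins 16.6%, and 15 of 40 other list shares moved by more than the SD of the libraries. Without wild type 3 the share of muscle markers was 0.00123% in place of 0.00534%, that of adipocyte markers 0.00181% in place of 0.00387%, that of erythroid markers 0.000667% in place of 0.00113% and that of sebaceous markers 0.00138% in place of 0.00208%, and without wild type 2 that of mast cell markers was 4.02e-05% in place of 7.55e-05%. Leaving out 1 library moved the means of 26 named genes by over 1.5 times, 16 of them without wild type 3. The median of the libraries, and the mean without 1 library, cannot lie more than 1 SD from the mean of 4, so a move within 1 SD there shows no stability. Genes that varied at least 2-fold numbered 946 at a mean of at least 5 FPKM and 79 at 100 FPKM, and 153 to 284 when 1 library was left out. Genes called by title code numbered 0 with a pseudocount of 5, with no filter on low values, with at least 1 FPKM required in all 4 libraries, after median-ratio scaling, and over all 8 libraries with genotype as a term (2573, 3122, 2158, 2868 and 2935 genes at an unadjusted p of 0.05 in limma), 28 in the 4 knockouts alone, and 3 to 242 when 1 library was left out. The genes at or above 1 FPKM in all 4 numbered 9194 to 11461 with other minimums. Median-ratio scaling, an alternative added after seeing the data, moved the mean of 0 of the 162 named genes by more than its SD. No paired analysis was possible because the wild-type libraries compared by title code share no replicate number. FPKM without depth limits what can be said of low genes.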
